A study of Mus musculus with 2 samples.

Results

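G1/S cells are described here as the cultured aortic vascular smooth muscle cells (VSMCs) with the highest expression of 6 genes that come on as a cell passes from G1 into DNA replication. The 6 genes were Ccne1 and Ccne2 (cyclins E1 and E2), Cdc6 (a loader of the replicative helicase), E2f7 (a repressor among the E2F factors), Clspn (claspin, a fork checkpoint adaptor) and Exo1 (a DNA exonuclease). Each cell was scored by the sum, over the 6 genes, of the natural logarithm of 1 plus its transcripts per 10000. The top 8% of cells were taken, which gave 1044 of 13045 cells, and the remaining 12001 cells are called the other cells. The score was a continuous measure, so the G1/S cells were a range of it and not a separate type.

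The cells were primary cultures, bought from vendors, of C57BL/6 mouse aortas. The 4 groups were young VSMCs from mice of 12 weeks, old VSMCs from mice of 58 to 78 weeks, young VSMCs exposed over 48 h to angiotensin II (AngII) at 100 nM, and old VSMCs in which Piezo1, a mechanosensitive calcium channel, was knocked down with siRNA (20 nM in the labels, whereas the study's text is not uniform on this dose). A non-targeting siRNA pool was the stated control for the knockdown, and the labels do not say whether the old cells of this library received it. Cells of each group carried an antibody with a DNA hashtag, and all were mixed and sequenced as 1 droplet library, with unique molecular identifiers (UMIs) so that copies of a molecule made by PCR count once. The sources used here do not pair hashtags with groups, although a schematic of the study numbers the groups young 1, old 2, young with AngII 3 and old with siPiezo1 4, so values are given by hashtag number.

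Barcodes were taken as cells from 2218 gene UMIs and 200 genes upward. The 13045 cells held 115033686 UMIs, and the median cell had 7915 of them from 2884 genes. No replicate cultures could be told apart and cells are not replicates, so no test was made. Levels are UMIs per 1000000 (CPM), summed over the cells of a set, and 95% intervals cover counting error only. The G1/S cells were deeper than the other cells, with a median of 9518.5 against 7766 UMIs and 3357.5 against 2840 genes. The share of G1/S cells was 2.51% of the cells with fewer than 5000 UMIs, 8.04% of those with 5000 to 10000, 11.1% of those with 10000 to 20000 and 10.4% of the 240 deeper ones. Main results are therefore also given for the 10612 cells with at least 5000 UMIs, thinned to 5000 each, which leaves out 2433 shallower cells. Scrublet, which looks for barcodes holding more than 1 cell, called 25.9% of the G1/S cells and 23.2% of the other cells doublets. They were kept unless stated.

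Entry into S phase rests on a relay of proteins. D-type cyclins with CDK4 or CDK6 phosphorylate the retinoblastoma protein, which frees E2F factors to switch on cyclin E and the genes for origin licensing, DNA synthesis and nucleotide supply. Cyclin E with CDK2 then fires the licensed origins, and E2F7 and E2F8 later shut the same genes down. VSMCs of the healthy aorta are mostly quiescent, and they re-enter this cycle in culture, after injury and under growth factors.

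The starts of the genes are shown first, because the G1/S cells were chosen by genes that E2F factors are known to regulate. RefSeq's promoter table (GRCm38.p6) gives 300 bases for each start, 250 before it and 50 from it onward. The table was searched on both strands for 4 forms of the E2F site, TTTCCCGC, TTTCGCGC, TTTGCCGC and TTTGGCGC. Of the 6 rule genes 4 were in it, and Ccne2 and Exo1 were not. Cdc6, E2f7 and Clspn held 1 match each and Ccne1 held none. Mcm6 and Mcm3, subunits of the replicative helicase, are shown because they had the highest ratios among the licensing genes, and Top2a, the DNA topoisomerase that untangles chromosomes, for contrast. Capitals mark E2F matches in the first 5 sequences. In Top2a they mark the cell cycle homology region (CHR), TTTGAA or TTCGAA on either strand, which is known from genes of G2 and mitosis.
Cdc6 (chr11:98907901-98908200, plus strand): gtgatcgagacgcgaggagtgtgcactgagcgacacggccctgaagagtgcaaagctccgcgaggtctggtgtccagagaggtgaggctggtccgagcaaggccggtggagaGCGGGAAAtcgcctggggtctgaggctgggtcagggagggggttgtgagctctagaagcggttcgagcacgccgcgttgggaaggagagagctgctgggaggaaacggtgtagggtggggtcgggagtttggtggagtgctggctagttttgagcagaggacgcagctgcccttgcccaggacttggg
E2f7 (chr10:110745189-110745488, plus strand): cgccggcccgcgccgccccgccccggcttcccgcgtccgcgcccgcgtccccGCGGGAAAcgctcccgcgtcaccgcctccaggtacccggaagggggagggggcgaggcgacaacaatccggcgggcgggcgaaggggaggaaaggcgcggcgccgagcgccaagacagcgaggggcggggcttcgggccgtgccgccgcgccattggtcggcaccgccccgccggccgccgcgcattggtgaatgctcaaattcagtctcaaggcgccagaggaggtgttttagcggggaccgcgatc
Clspn (chr4:126556730-126557029, plus strand): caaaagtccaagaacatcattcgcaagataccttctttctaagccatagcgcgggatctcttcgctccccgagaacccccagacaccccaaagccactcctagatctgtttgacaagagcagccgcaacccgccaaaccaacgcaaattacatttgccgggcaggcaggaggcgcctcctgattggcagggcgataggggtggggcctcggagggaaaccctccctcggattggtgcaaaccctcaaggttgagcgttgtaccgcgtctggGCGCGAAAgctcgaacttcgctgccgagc
Mcm6 (chr1:128359656-128359955, minus strand): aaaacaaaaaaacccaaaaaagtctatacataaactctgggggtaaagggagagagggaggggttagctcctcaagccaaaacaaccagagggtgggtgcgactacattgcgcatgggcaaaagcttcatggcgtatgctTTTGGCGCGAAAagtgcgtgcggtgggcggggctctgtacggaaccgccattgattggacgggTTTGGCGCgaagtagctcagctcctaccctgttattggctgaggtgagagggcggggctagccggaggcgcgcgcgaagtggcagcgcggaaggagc
Mcm3 (chr1:20820263-20820562, minus strand): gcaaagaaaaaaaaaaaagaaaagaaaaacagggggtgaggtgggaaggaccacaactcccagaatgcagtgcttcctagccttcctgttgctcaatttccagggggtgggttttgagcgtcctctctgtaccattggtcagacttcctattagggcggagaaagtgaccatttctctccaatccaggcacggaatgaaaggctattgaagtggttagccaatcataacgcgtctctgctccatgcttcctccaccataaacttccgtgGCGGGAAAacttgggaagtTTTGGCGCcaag
Top2a (chr11:99024140-99024439, minus strand): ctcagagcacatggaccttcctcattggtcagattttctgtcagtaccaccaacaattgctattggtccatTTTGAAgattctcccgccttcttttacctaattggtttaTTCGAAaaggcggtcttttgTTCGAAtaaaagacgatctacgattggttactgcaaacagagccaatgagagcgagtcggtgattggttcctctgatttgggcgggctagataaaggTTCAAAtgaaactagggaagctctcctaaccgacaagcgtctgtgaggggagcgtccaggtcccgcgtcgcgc

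The match in Cdc6 began 138 bases before the start and that in E2f7 198 bases before it, both as GCGGGAAA. The match in Clspn lay past the start, at base 22 of the transcript side. Mcm6 held 3 matches, of which a pair overlapped, and Mcm3 held 2 within the first 50 transcribed bases, while Top2a held 4 CHR matches. These letters were rare in general: 2.32% of the 27025 genes in the table held an E2F match, as did 4.29% of the 8401 genes that were both in it and among those compared below. Among the origin licensing genes it was 8 of 13 (61.5%), including Orc1, Cdt1, Mcm5 and Mcm7. Orc3, a subunit of the origin recognition complex, also held a match, although its level hardly differed between the sets, with a ratio of 1.02 (95% interval 0.90 to 1.15). The share was 33.3% of the firing genes, 29.4% of the checkpoint and repair genes, 6 of 20 fork synthesis genes and 0 of 14 nucleotide supply genes. Over licensing, firing, fork synthesis and nucleotide supply together it was 30.4%.

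The share of promoters with an E2F match was 12.5% of the genes at least 1.5-fold higher in G1/S cells (84 of 670), 19.0% of those at least 2-fold higher and 26.2% of those at least 3-fold higher. Without the rule genes, which were chosen to be high, these shares were 12.2%, 18.2% and 23.8%. The share was 1.24% of the genes at least 1.5-fold lower. The CHR letters were in 13.9% of all compared genes, and they too were more frequent among the higher genes, at 23.6%, 31.7% and 27.4% in the same fold classes, and were in 17.1% of the 1.5-fold lower genes. By list, they were in 21 of 27 mitosis genes (77.8%), of which 1 held an E2F match, and in 44.4% of the firing, 40.0% of the chromatin assembly, 15.4% of the licensing and 10.0% of the fork synthesis genes. A match describes letters in a window and is not a measured site.

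The values that chose the cells came first. Ccne2 was at 245 CPM in G1/S cells and 20.2 in the other cells, a ratio of 12.2 (11.5 to 12.9). Cdc6 had 55.2 against 4.90 CPM (ratio 11.3), E2f7 64.3 against 6.35 (10.1) and Exo1 49.8 against 5.40 (9.22). Clspn and Ccne1 had the smallest ratios of the 6, 7.46 and 7.00, at 189 and 186 CPM in G1/S cells and 25.3 and 26.6 CPM in the others. In barcodes with 1 to 100 UMIs, which hold free RNA and debris, Ccne1 was at 34.8 CPM and Ccne2 at 29.6, above the other cells, and the other 4 genes were also higher there than in the other cells. No cell type that should lack these genes was present to measure the background within cells.

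A G1/S cell carried a median of 8 UMIs of the 6 genes (2 to 35), and 7689 cells (58.9%) carried none. Within the G1/S cells, 39 had a UMI of all 6 genes, 245 of 5, 418 of 4, 292 of 3 and 50 of 2. The set held 47.6% of all rule gene UMIs (8423 of 17688). The edge of the set was not a gap: the last cell inside scored 2.995 and the first outside 2.993. The 10 last cells inside had 3 to 11 rule gene UMIs and the 10 first outside 4 to 7.

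Whether the 6 genes marked the same cells was measured by leaving each one out in turn, ranking the cells by the other 5, and reading the gene that had not been used. All 6 remained higher in the top 8%. Ccne2, scored without itself, was at 191 CPM in the top cells and 25.9 in the rest (ratio 7.39, 6.98 to 7.84). The ratio was 6.95 for Cdc6, 5.95 for E2f7, 5.58 for Exo1, 5.13 for Clspn and 4.70 for Ccne1. In the cells thinned to 5000 UMIs the 6 ratios ran from 4.10 (Ccne1) to 5.96 (Ccne2). Without doublets and cells with more than 1 hashtag they ran from 5.55 to 10.1. All 6 ratios stayed above 4 in each of these settings. The 6 genes were chosen together with earlier results of these data known, so these ratios describe the set and are not independent support for it.

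**Figure D1:**
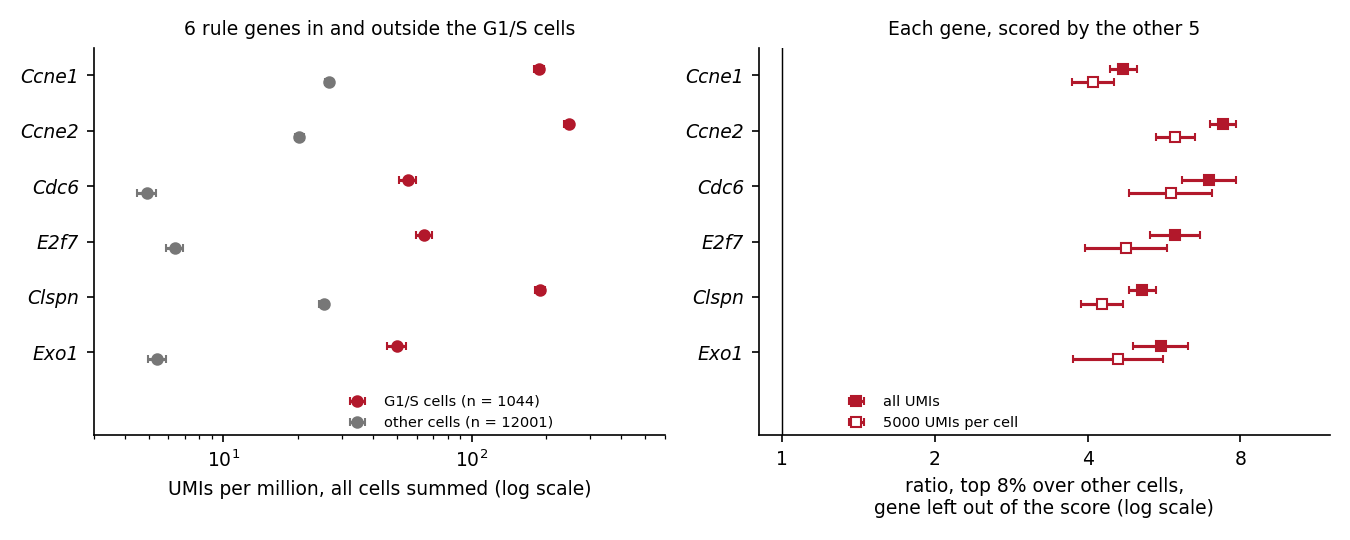
Left, CPM (log axis) of the 6 rule genes in G1/S cells (red) and other cells (grey). Right, ratio of the top 8% over the rest (log axis) when the gene plotted was left out of the score, with all UMIs (filled) or 5000 UMIs per cell (open). Bars are 95% intervals for counting error, and all 6 held-out ratios lie above 4.

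By hashtag, levels inside the set are in part set by the score itself. In G1/S cells of hashtags 1, 2, 3 and 4, Ccne2 was at 232, 230, 250 and 238 CPM. In the other cells of the same hashtags it was at 14.8, 16.03, 29.4 and 15.6 CPM, so hashtag 3 stood highest outside the set too. Ccne1 was at 170, 217, 188 and 192 CPM inside the set, and outside it at 20.3, 28.0, 33.2 and 25.7 CPM. Hashtag 3 was again the highest outside, although its interval overlapped that of hashtag 2. Outside the set Cdc6, E2f7 and Exo1 were also highest in hashtag 3. Clspn was highest in hashtag 4 (25.9 against 23.5 CPM in hashtag 3, with overlapping intervals). Cdc6 was at 41.8, 35.1, 52.6 and 48.5 CPM inside the set, on 29, 20, 123 and 81 UMIs, and these intervals overlapped. Over all cells of a hashtag, in or out of the set, the 6 genes summed to 91.4 CPM in hashtag 1, 139 in hashtag 2, 215 in hashtag 3 and 154 in hashtag 4.

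Across 10557 genes with at least 500 UMIs, 838 (7.94%) were at least 1.5-fold higher in G1/S cells and 508 (4.81%) at least 1.5-fold lower. These genes come from the same cells that the rule scored, so the counts describe the set. Of the 838, 742 were above 1 within each of the 4 hashtags (21.1% of all genes were) and 423 were at least 1.5-fold higher in each (4.09% of all genes were). Of the 508, 315 were below 1 in each hashtag (17.4% of all genes were) and 59 were at least 1.5-fold lower in each (0.654% of all genes were). When ratios were pooled within hashtags, 874 of the 10557 genes were at least 1.5-fold higher and 489 at least 1.5-fold lower.

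Origin licensing, the loading of the MCM helicase on origins by ORC, CDC6 and CDT1, was covered by 15 genes besides the rule genes. Of these, 12 were at least 1.5-fold higher in G1/S cells and 0 lower, with a median ratio of 2.78, against 1.002 over all genes. Mcm3 had the highest ratio, 113 against 30.9 CPM (3.66). Within hashtags 1 to 4 it stood at 108, 132, 117 and 117 CPM in G1/S cells and at 26.0, 29.5, 32.1 and 30.6 CPM in the other cells. These are levels summed over cells and do not show whether single cells overlapped. In all, 4.09% of the compared genes were at least 1.5-fold higher in each hashtag. Mcm6 was at 115 against 32.5 CPM (3.54). Orc6 and Gmnn (geminin, the inhibitor of CDT1) were the most abundant of the list in the set, with ratios of 2.56 and 3.28. Orc4 had the lowest ratio, 0.93, and with Orc3 and Orc5 made up the 3 genes that did not pass 1.5.

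Origin firing, in which CDC7 and CDK2 turn the loaded helicase into a working one, was higher in all of its 13 genes at the 1.5-fold limit (median 2.65). Mcm10, which helps start unwinding, had a ratio of 4.77, and Ticrr (treslin, a firing factor) 4.01. Topbp1, the scaffold of firing and checkpoint, had 137 against 64.5 CPM, and Dbf4, the activator of CDC7, 109 against 58.0. Gins4, a subunit of the GINS complex of the helicase, was lowest in the list at 1.79.

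Fork synthesis genes were higher in 22 of 24, with a median of 2.56. Pcna, the clamp that holds the polymerases on DNA, was at 208 against 65.1 CPM, a ratio of 3.20. In the 4 hashtags its G1/S levels were 220, 210, 181 and 236 CPM, against 60.7, 62.3, 69.5 and 65.9 CPM outside. Hells, a chromatin remodeler, had 145 against 39.5 CPM. The highest ratios belonged to Dna2, a nuclease and helicase that trims Okazaki fragments (4.85), and Pola1, the catalytic subunit of the priming polymerase (3.91). Rnaseh2a, part of the enzyme that removes ribonucleotides, was lowest at 1.47.

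Nucleotide supply was less uniform, with 11 of 15 genes higher and a median of 2.08. Rrm2, the regulated subunit of ribonucleotide reductase, was at 165 against 43.6 CPM (3.78), and Dck (deoxycytidine kinase) had a ratio of 3.62. Dut, which removes dUTP, was the most abundant at 313 against 155 CPM. Samhd1, which breaks down deoxynucleotides and is also an interferon-responsive gene, had the lowest ratio, 0.92. Over the 4 lists together, 58 of 67 genes were at least 1.5-fold higher, 0 lower, and the median log2 ratio was 1.37. The medians of the 67 ratios within hashtags 1 to 4 were 2.51, 2.59, 2.61 and 2.77, so the size of the difference was nearly the same in all.

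The regulators upstream split by member. E2f8, the partner of E2f7, had the highest ratio of any gene outside the rule, 35.7 against 5.93 CPM (6.03, 5.29 to 6.86). Rbl1 (p107, a pocket protein) had a ratio of 3.27, while its relative Rbl2 (p130) was at 0.84. E2f3 and Tfdp1 (the dimer partner of E2Fs) were at 1.70 and 1.97. In all, 7 of 11 genes of the E2F and pocket protein list were higher and 0 lower. Among 10 D cyclins and G1 kinases 2 were at least 1.5-fold higher (7.94% of all genes were). They were Cdk2 (21.01 against 6.57 CPM, 3.20), the partner of cyclin E, and Skp2 (2.87), which targets p27 for destruction. Ccnd1 (cyclin D1) had 963 against 824 CPM (1.17) and Ccnd2 the lowest ratio, 0.94.

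The inhibitors differed less. Of 19 CDK inhibitor and p53 target genes, 1 was higher and 2 were lower (7.94% and 4.81% of all genes were), so the list did not stand out by these counts. Ccng2 (cyclin G2, linked to cell cycle exit) was at 6.75 against 16.9 CPM (0.40, 0.31 to 0.51), and its ratios in hashtags 1 to 4 were 0.39, 0.36, 0.44 and 0.47. Cdkn2b (p15, an inhibitor of CDK4 and CDK6) was at 25.8 against 50.2 CPM (0.51). Cdkn2c (p18) was higher, at 1.72. Cdkn1a (p21), the most abundant inhibitor, was nearly level at 697 against 659.5 CPM (1.06). Trp53 (p53) had a ratio of 1.22, and Bax, a p53 target that promotes apoptosis, was at 466 against 518 CPM (0.90).

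Fork checkpoint and repair genes were higher in 20 of 23 (median 3.02). Brip1 and Brca1, a helicase and a ubiquitin ligase of homologous recombination, had ratios of 4.81 and 4.70. Tipin and Usp1, of fork protection and of the Fanconi anemia pathway, were the most abundant, at 158 and 139 CPM. The checkpoint kinase Atr had the lowest ratio, 1.35. All 12 chromatin assembly genes passed 1.5 (median 3.04), led by Atad2 (4.17) and Uhrf1 (4.13), a partner of the maintenance DNA methyltransferase. The histone variant H2afz was the most abundant and the lowest, 1628 against 1050 CPM (1.55), and Hmgb2, a chromatin protein, was at 389 against 177 CPM.

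Replicative histones are made in S phase, and their transcripts mostly lack the poly(A) tail by which this assay captures RNA, so their UMIs are a small part of what cells make. Of 16 genes 10 reached 500 UMIs, and 7 were higher and 0 lower (median 2.16). The median ratios within hashtags 1 to 4 were uneven, at 1.32, 2.30, 1.42 and 2.50, and 1 of the 10 genes was at least 1.5-fold higher in each. All 16 genes summed to 684 CPM in the G1/S cells of hashtag 3 and 686 in its other cells, against 871 and 531 in hashtag 4. Hist1h1b (linker histone H1.5) was at 218 against 53.9 CPM (4.05, 3.86 to 4.25) and Hist1h2ae at 28.5 against 10.4 (2.74). Hist1h2bc, an H2B gene, was the most abundant and had the lowest ratio, 328 against 385 CPM (0.85). Hist1h1b varied by hashtag, with 183, 247, 67.6 and 303 CPM in the G1/S cells of hashtags 1 to 4. The hashtag 3 level lay below the other 3, with no overlap of the intervals.

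**Figure D2:**
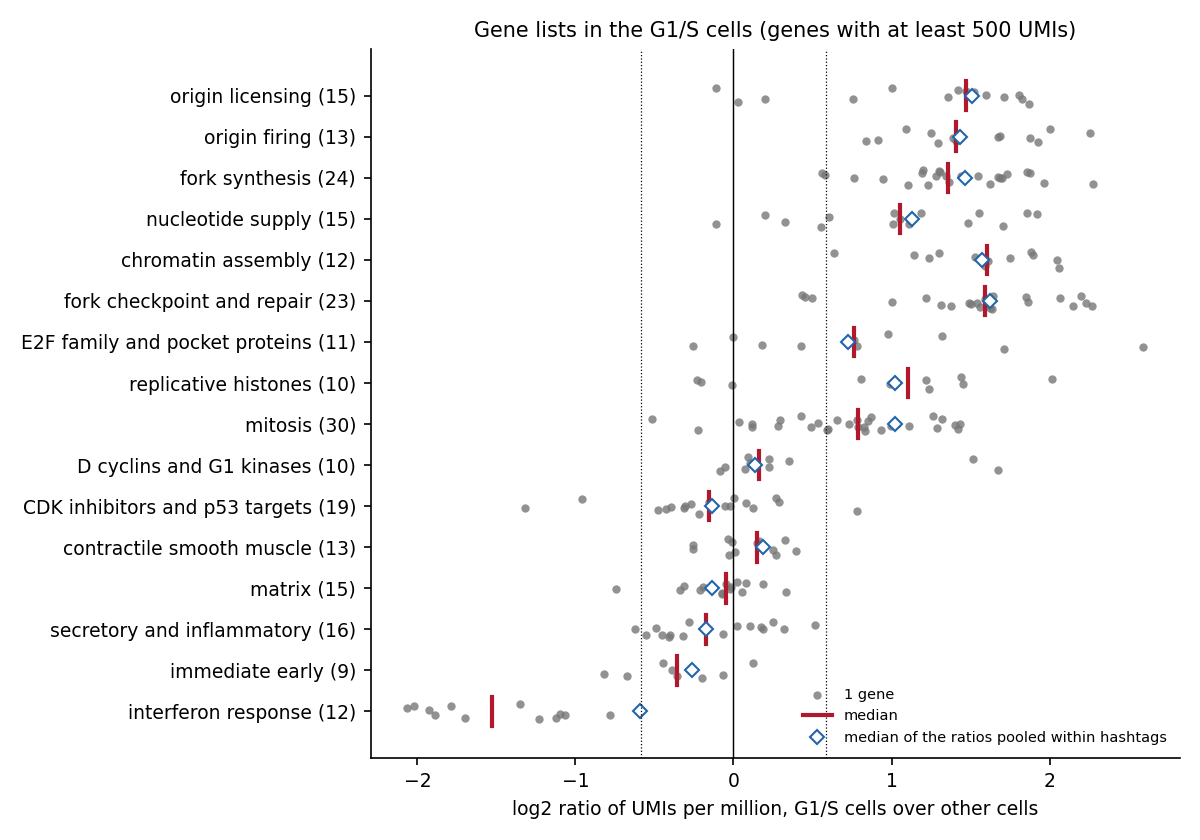
Log2 ratio of CPM, G1/S cells over other cells, for each gene with at least 500 UMIs (points), by gene list, with the number of genes in brackets. Red lines are list medians, diamonds the medians when ratios were pooled within hashtags, and dotted lines mark 1.5-fold. The replication lists lie to the right, and interferon response genes lie farthest left, less so within hashtags.

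Among the 15 genes with the highest ratios after the 6 rule genes, all were at least 1.5-fold higher in each hashtag, and 8 belonged to a list above. E2f8 was followed by Mybl2 (5.24), a B-Myb factor that acts later in the cycle, Neil3 (5.22), a DNA glycosylase of replicating cells, and Fbxo5 (5.14), which is Emi1, the inhibitor of the anaphase-promoting complex. Aunip (4.95), Slfn9 (4.71), Wdr76 (4.47) and Ncapg2 (4.27), a condensin subunit, were outside all lists, as were Mybl2, Neil3 and Fbxo5. The others were Dna2, Brip1, Mcm10, Brca1, Rad51ap1 (4.59), Rad54l (4.44) and Bard1 (4.18), of which the last 3 act in homologous recombination.

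Mitosis genes were also higher, but unevenly. Of 30 genes 20 were at least 1.5-fold higher and 0 lower, with a median ratio of 1.72 (log2 0.78). The highest were Ttk (2.70), the spindle checkpoint kinase, and Top2a (383 against 143 CPM, 2.68), and Birc5 (survivin) was at 174 against 98.0 CPM (1.77). Cenpa, the centromeric histone H3 variant, was the lowest at 43.7 against 62.4 CPM (0.70, 0.64 to 0.77). Genes chosen after their values were seen were Ccnb2 (cyclin B2, 0.85), Cenpf (a kinetochore protein, 1.02), Ube2c (an enzyme of cyclin destruction, 1.08) and Ccna2 (cyclin A2, which acts in S phase as well as G2, 2.64). The first 3 are known for a peak near mitosis. The other cells of hashtag 3 held 781 CPM of the 30 genes, against 1564, 1370 and 1433 in hashtags 1, 2 and 4. Within hashtags 1 to 4 the median ratios were 1.54, 2.01, 2.55 and 2.06. Over the cells with 1 hashtag the median was 1.86 with 21 of 30 genes higher. Pooled within hashtags it was 2.03 with 24 higher (874 of all 10557 genes were). Ccnb2, Cenpf and Ube2c were then at 1.14, 1.29 and 1.38 and Cenpa at 0.89.

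The other cells held dividing cells too, so the G1/S cells were set beside a second set. It was taken in the same way as the top 8% by 6 mitotic genes (Cdk1, Ccnb1, Top2a, Mki67, Plk1 and Cenpf), which gave 1044 mitotic-gene cells. The sets shared 96 cells, 9.20% of either set, near the 8% of all cells that each set holds. Against the mitotic-gene cells, with shared cells left out, the G1/S cells were higher in 54 of 67 replication genes (46.1% of all genes were), with a median ratio of 1.36. Of the 67, 24 were at least 1.5-fold higher (6.35% of all genes were) and 1 at least 1.5-fold lower (6.68% of all genes were). Of the 30 mitosis genes 0 were higher and 30 were at least 1.5-fold lower (median 0.34), which the choice of the second set by 6 of them fixes in part. By list, the median was 1.49 for licensing and 1.05 for nucleotide supply. It was 0.765 for the replicative histones, which are not among the 67, with 2 of 10 genes higher. Rrm2 was 1.36 and Hist1h1b 0.985 times the mitotic-gene level. Ccne1 and Ccne2 were 6.74 and 11.9 times it, but as rule genes they had to be high in the G1/S cells.

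In single cells the 67 replication genes took a median of 0.514% of the UMIs of a G1/S cell, 0.160% of those of the other cells and 0.391% of those of a mitotic-gene cell. The middle 80% of G1/S cells ran from 0.354% to 0.665%. The 30 mitosis genes took 0.226%, 0.0308% and 0.651%. The middle 80% of G1/S cells spanned 0.0864% to 0.448% for mitosis genes, which met the lower end of the mitotic-gene cells (0.435%). The 96 cells in both sets lay high on both, at 0.559% and 0.510%.

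**Figure D3:**
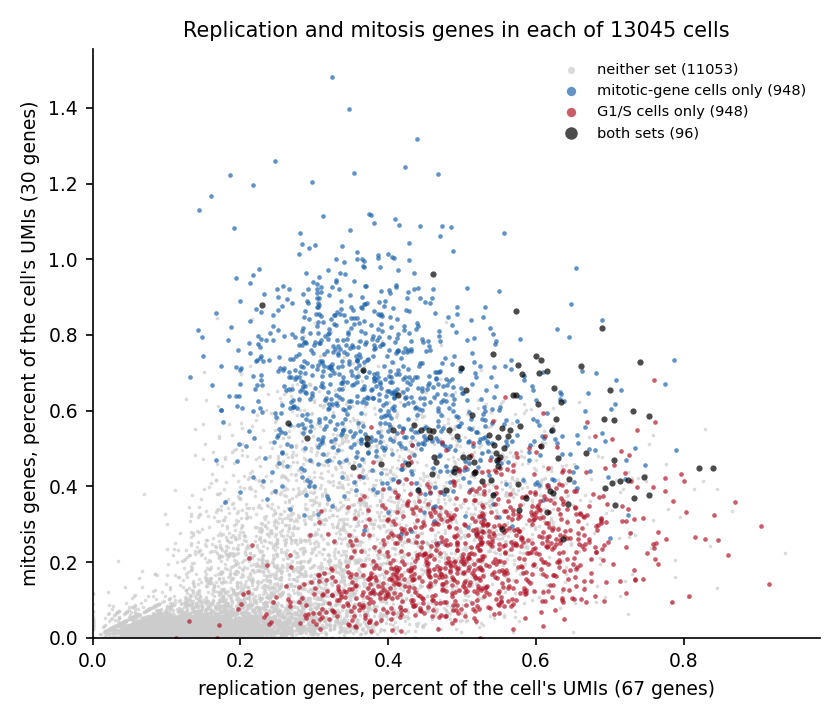
Percent of each cell's UMIs from 67 replication genes (x axis) and 30 mitosis genes (y axis) in 13045 cells, with G1/S cells in red, mitotic-gene cells in blue, cells in both sets in black and the rest in grey. Most G1/S cells lie to the right of the rest and below the blue cells, at medians of 0.514% and 0.226%, and they border the blue cells without a gap.

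The gradient was also seen without the cutoff. Among 10612 cells thinned to 5000 UMIs, cells with 0, 1, 2, 3, 4 and at least 5 rule genes detected had 367, 649, 964, 1131, 1217 and 1216 CPM of the licensing genes. The mitosis genes stood at 1049, 2358, 2660, 2520, 2437 and 2416 CPM. Licensing genes thus kept increasing up to 4 rule genes, while mitosis genes were highest at 2. Cenpa stood at 49.3, 90.3 and 76.6 CPM in the cells with 0, 1 and 2. It stood at 32.0 CPM in the 25 cells with at least 5, which at 5000 UMIs per cell rests on few UMIs.

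The G1/S cells were also split by detection of a histone gene. Of the 983 G1/S cells left after thinning, 492 (50.1%) had a UMI of Hist1h1b, with 1121 UMIs in all. At so few UMIs per cell, a cell without one may still express the gene, and its background within cells was not measured. Other histone genes went with Hist1h1b. Cells with its UMI had 3.35 times (2.63 to 4.29) the Hist1h1e and 4.49 times (2.96 to 7.03) the Hist1h2ae of those without. Among rule genes, the ratio was 1.01 (0.89 to 1.15) for Ccne1, 0.99 (0.89 to 1.11) for Ccne2 and 1.34 (1.06 to 1.70) for E2f7. Mcm6 and Rrm2 were at 1.36 and 1.35, and Top2a and Mki67, both of the mitosis list, at 1.61 and 2.01. Ccnd1 was at 0.85 (0.80 to 0.90). The split differed in its mix of hashtags, since 28.2% of the G1/S cells of hashtag 3 had a Hist1h1b UMI against 48.5%, 47.8% and 63.4% in hashtags 1, 2 and 4. Pooled within hashtags Ccnd1 was at 1.08, on the other side of 1, while Hist1h1e was at 2.56, Hist1h2ae at 3.87, E2f7 at 1.42, Rrm2 at 1.39, Top2a at 1.62 and Mki67 at 1.98. A UMI of Ccnb1 (cyclin B1) was found in 157 of the 983 cells (15.97%), and the share in cells outside the set is not given here. Cells with it had 1.96 times (1.41 to 2.70) the Cenpa, 1.63 times the Cenpf and 1.53 times the Mki67 of those without. Ccne1 was at 1.07 (0.90 to 1.27) and Ccne2 at 0.93 (0.79 to 1.09). These Ccnb1 ratios were not pooled within hashtags. The split genes were chosen after earlier values were seen.

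The share of cells that were G1/S cells differed by hashtag. It was 2.28% (71 of 3117, exact 95% interval 1.78 to 2.86) for hashtag 1, 8.03% (46 of 573, 5.94 to 10.6) for hashtag 2, 14.9% (218 of 1468, 13.1 to 16.8) for hashtag 3 and 9.72% (147 of 1512, 8.28 to 11.3) for hashtag 4. Hashtag 1 lay below the rest and hashtag 3 above them, whereas the intervals of hashtags 2 and 4 overlapped. Hashtag 1 cells were also the shallowest, with a median of 6779 UMIs against 10762, 9435.5 and 9782.5. Among cells thinned to 5000 UMIs before scoring the shares came to 2.57%, 6.79%, 12.8% and 8.93%, and the order held. Thinning left out 747, 28, 130 and 113 shallower cells of hashtags 1 to 4, so the set of cells differed too. Without doublets and multiply tagged cells, ranked anew, they were 1.58%, 7.24%, 17.1% and 9.29%.

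Each hashtag is taken as 1 culture, so these intervals do not cover the spread between cultures. Hashtags 2 to 4 were weakly separated, with medians of 70, 116 and 67 UMIs of the own tag against 15, 31 and 20 in untagged cells, and 370 against 10 for hashtag 1. Requiring the highest tag to be 3 times the next kept 192 cells of hashtag 2 and 492 of hashtag 4, with shares of 2.62%, 7.29%, 14.8% and 9.76% over the 4 hashtags. The highest and lowest hashtag stayed the same.

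The mitotic-gene cells followed another order. They made up 7.22% (6.33 to 8.18) of hashtag 1, 8.90% (6.70 to 11.5) of hashtag 2, 1.84% (1.22 to 2.66) of hashtag 3 and 11.4% (9.82 to 13.1) of hashtag 4. Hashtag 3 thus had the highest share of G1/S cells and the lowest share of mitotic-gene cells, 218 against 27 cells. Hashtag 1 had 71 against 225 cells. Thinned, the mitotic-gene shares were 7.72%, 7.52%, 1.94% and 10.7%. Over all cells of hashtags 1 to 4, the 30 mitosis genes summed to 1591, 1480, 972 and 1590 CPM and the 67 replication genes to 2163, 2258, 2460 and 2425 CPM. Without a cutoff on cells hashtag 3 was thus lowest in mitosis genes and hashtag 1 lowest in replication genes, whereas the replication intervals of hashtags 3 and 4 overlapped (2435 to 2486 and 2401 to 2450) and hashtag 1 was not low in mitosis genes.

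**Figure D4:**
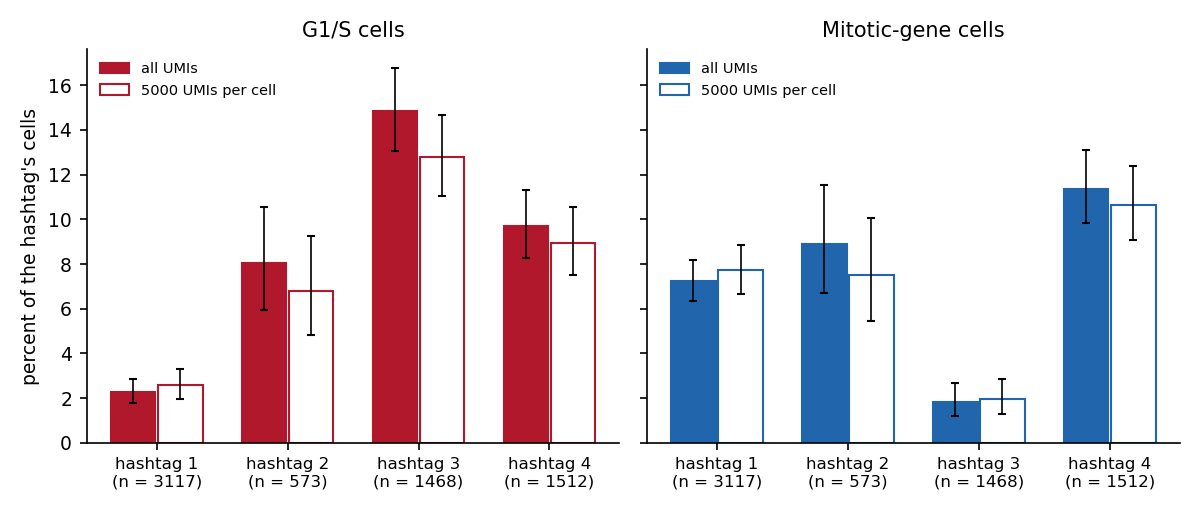
Percent of the cells of each hashtag that were G1/S cells (left, red) and mitotic-gene cells (right, blue), with all UMIs (filled) or with 5000 UMIs per cell (open). Bars are exact 95% binomial intervals for counting error, and n is the number of cells. Hashtag 3 is highest on the left (14.9%) and lowest on the right (1.84%).

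Contractile genes were nearly level over the pool. Of 13 genes with at least 500 UMIs, 0 were at least 1.5-fold higher and 0 lower (7.94% and 4.81% of all genes were), with a median ratio of 1.11. Acta2 (smooth muscle alpha-actin) was at 341 against 339 CPM (1.01), Myl9 (a myosin light chain) at 55.6 against 56.8 (0.98) and Tagln (transgelin) at 744 against 594 (1.25). Smtn (smoothelin) had the highest ratio, 1.31, and Mylk (myosin light chain kinase) the lowest, 0.84. The abundant Actg1 and Tpm1 were at 1.21 and 1.12.

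Within hashtags the ratios differed. Acta2 was at 218 CPM in the G1/S cells of hashtag 1 against 377 in its other cells (0.58, 0.49 to 0.68). It was at 700 against 531 CPM in hashtag 2 (1.32, 1.19 to 1.46), 270 against 300 in hashtag 3 (0.90, 0.83 to 0.98) and 253 against 165 in hashtag 4 (1.54, 1.39 to 1.71). Myl9 ran the same way, with ratios of 0.53, 1.41, 0.85 and 1.54. Tagln was at 1.04, 1.81, 0.87 and 1.56. With these hashtag calls, G1/S cells had less Acta2 than the other cells in hashtag 1 and more in hashtag 4. Without doublets the Acta2 ratios were 0.40, 0.99, 0.99 and 1.39, and where only cells with a top tag at least 3 times the second were kept they were 0.91 (0.80 to 1.03), 1.39, 0.85 and 1.42. Myl9 in hashtags 1 and 4 was at 0.32 and 1.62 without doublets, and under the tag rule at 0.47 (0.30 to 0.71) and 0.97 (0.57 to 1.56). Under that rule an interval thus reached 1 for each gene, in hashtag 1 for Acta2 and in hashtag 4 for Myl9.

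**Figure D5:**
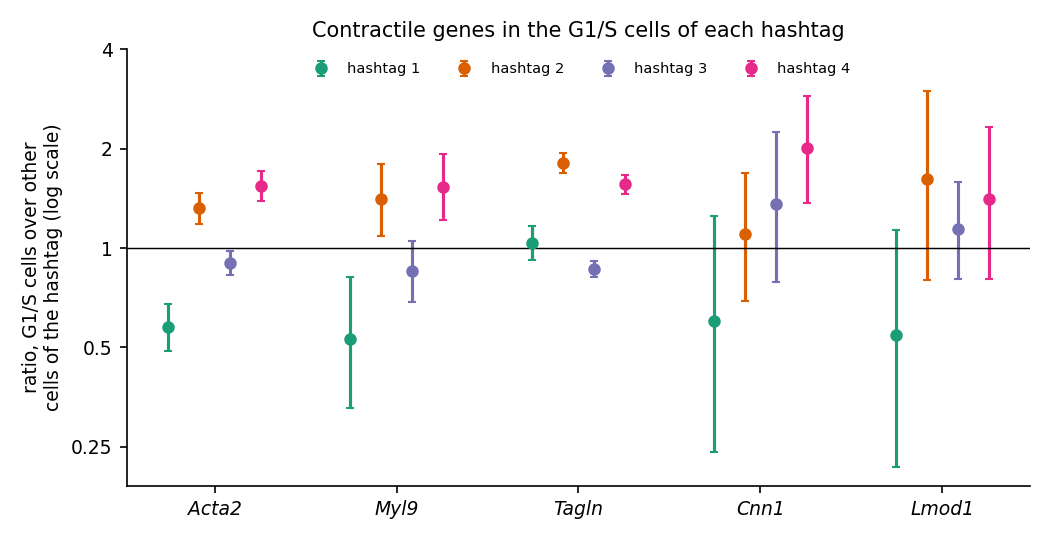
Ratio (log axis) of CPM, G1/S cells over the other cells of the same hashtag, for 5 contractile genes, with 95% intervals for counting error. Cnn1 and Lmod1 were added after their values were seen. The Acta2 ratio is 0.58 in hashtag 1 and 1.54 in hashtag 4.

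Matrix and secretory genes, the other programs of cultured VSMCs, differed little. Of 15 matrix genes 0 were higher and 1 lower (median 0.97), against 7.94% and 4.81% of all genes. The lower gene was Col3a1 (a fibrillar collagen), at 88.8 against 149 CPM (0.60), and at 0.83 when pooled within hashtags. Spp1 (osteopontin), the most abundant, had 7058 against 7144 CPM. Thbs1 (thrombospondin 1) and Tnc (tenascin C) had the highest ratios, 1.26 and 1.14. Of 16 secretory genes 0 were higher and 1 was lower, Serpina3n (0.65), an inhibitor of serine proteases, which was at 0.79 when pooled within hashtags. Ccl2, a chemokine, was at 3709 against 3281 CPM and Ccl7, another, at 989 against 1310 (0.76). The metalloproteases Mmp10 and Mmp3 had the highest ratios, 1.43 and 1.25.

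Of 9 immediate early genes, which respond to stimuli within minutes, 0 were higher and 2 lower (7.94% and 4.81% of all genes were). Fos was at 37.4 against 66.1 CPM (0.57) and Fosb at 28.2 against 45.1 (0.63). Pooled within hashtags Fos was at 0.65 and Fosb at 0.70, so that 1 of the 9 stayed 1.5-fold lower (489 of all 10557 genes were). Egr1, the most abundant, was at 146 against 153 CPM (0.95), Junb had a ratio of 0.78 and Klf2 the highest, 1.09.

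The channels included Piezo1, the siRNA target. It was at 104 against 84.2 CPM (1.23, 1.15 to 1.31). Within hashtags its G1/S levels were 114, 123, 115 and 93.5 CPM against 70.5, 85.5, 107 and 85.7 CPM, with overlapping intervals in hashtags 3 and 4. In the other cells hashtag 1 was lowest (interval 67.1 to 74.0) and hashtag 3 highest (102 to 113), while hashtags 2 and 4 overlapped. These levels were not used to assign hashtags to groups. Of the 6 channel genes with at least 500 UMIs, 1 passed 1.5 (7.94% of all genes did). It was the cation channel Trpc6 (10.9 against 6.21 CPM, 1.75), which was at 1.45 when pooled within hashtags. Stim1, the calcium sensor of the endoplasmic reticulum, was at 1.47, Piezo2 at 1.33, Orai1 at 0.97 and Pkd2 at 0.87. Trpv4, Trpc4 and Trpc1 had 59, 101 and 142 UMIs in all cells, too few to compare.

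Interferon response genes had the lowest median ratio of the lists. All 12 genes of the list were at least 1.5-fold lower, with a median ratio of 0.35. Ifit3 (an RNA-binding antiviral protein) was at 32.4 against 135 CPM (0.24) and Ifit1 at 70.4 against 243 (0.29). In the other cells of hashtags 1 to 4, however, Ifit3 was at 495, 15.9, 18.9 and 13.1 CPM, and hashtag 1 gave few G1/S cells. In the G1/S cells it was at 256, 8.77, 13.7 and 5.39 CPM. In the cells with 1 hashtag, which hold 482 of the G1/S cells, the median of the list was 0.29 with 12 of 12 genes lower. In the same cells, pooled within hashtags, it was 0.66, and 6 of 12 genes were 1.5-fold lower (489 of all 10557 genes were). Bst2, the most abundant (387 against 665 CPM), then had a ratio of 0.87. Isg15, a ubiquitin-like protein, was at 112 against 286 CPM (0.39), and Usp18, which removes it, had a ratio of 0.48.

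The 15 lowest ratios of all genes ran from 0.20 (Ifi206) to 0.29 (Gm4951), and 5 of them were in the interferon list: Ifit3, Ifit3b, Slfn5, Rsad2 and Ifit1. The others were F830016B08Rik, Phf11b, Gm4841, Npy (neuropeptide Y), AW011738, H2-Q6 (an MHC class I gene), Ccn5 (a matricellular inhibitor of VSMC growth, 6.00 against 20.97 CPM, 0.29) and Ccl5 (a chemokine, 57.8 against 202 CPM, 0.29), with Ifi206 and Gm4951. Of the 15, which were picked for low ratios in these cells, 8 were below 1 in each hashtag (17.4% of all genes were). Some of the 8 rest on few UMIs. In G1/S cells of hashtags 2 to 4 Gm4841 had 0, 1 and 0 UMIs and AW011738 had 0, 2 and 1, with intervals that reached above 1. Ifit1 had 10, 123 and 24 UMIs there. Ccl5 was above 1 in hashtags 2 and 4 (1.75 and 3.57) and Ccn5 in hashtag 3 (1.38). Pooled within hashtags the 15 ran from 0.17 to 0.72, and 13 were 1.5-fold lower (489 of all 10557 genes were). Ccn5 was at 0.72 and Ccl5 at 0.65 on that scale.

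Markers of endothelial cells, leukocytes and red cells were near 0, and epithelial markers were higher. Endothelial markers summed to 4.69 CPM in G1/S cells and 5.42 in the others, with Kdr the most abundant (272 UMIs in all cells, 15 of them in G1/S cells) and Cldn5 at 0. Macrophage and leukocyte markers summed to 7.32 and 8.45 CPM, with Csf1r the most abundant (460 UMIs, 27 in G1/S cells) and C1qa and Cd3e at 0. Erythroid markers had 1 UMI in all cells. Epithelial markers summed to 20.4 and 30.3 CPM, and in the other cells of hashtags 1 to 4 to 24.8, 38.1, 55.0 and 21.8 CPM. Their most abundant gene was Perp, and Upk1b (uroplakin 1b) was at 1.78 against 6.10 CPM (0.29), Krt19 at 0.69 and Perp at 0.86. The VSMC genes Acta2, Tagln and Myl9 were at the levels given above.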

How the data were processed

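One pooled droplet library of cultured mouse aortic VSMCs was analysed. The authors deposited raw UMI counts made with Cell Ranger 4 for 32285 genes and 4 hashtags and 2472397 barcodes, unfiltered. Their genome build was not given in the sources used here. Cells held 82.9% of all gene UMIs. Hashtags were called with HTODemux (Seurat 5.3.0, R 4.3.3) at the 0.99 quantile, which left 5307 cells untagged and 1068 with more than 1 tag, and doublets with Scrublet (scanpy 1.11.5, expected rate 0.1), which called 23.4% of cells, far above that rate. Counts were summed over cells and scaled to 1000000. Intervals are exact (Poisson for levels, binomial for ratios, Clopper-Pearson for shares) at 95%. UMIs count molecules, but intervals cover counting error only. Ratios pooled within hashtags weight each as in a Mantel-Haenszel rate ratio. In simulated Poisson counts with 200 of 10557 genes changed by 2-fold, 95.4% of intervals held the true ratio. In them 100.0% of changed genes and 0.058% of unchanged ones passed 1.5. The simulation used the counting model of the intervals, without spread between cells or cultures and without choice of cells by a score. It therefore checks the calculation and not how the intervals cover these data. Genes named are the 6 rule genes and, per list, the 2 most abundant, the 2 highest and the lowest ratio. Also named are the 15 highest and 15 lowest ratios of all genes, small lists whole, and Piezo1, Acta2, Tagln and Myl9. Genes outside this rule, such as Orc3, Orc5, Cdkn2b and Fosb, were named after values were seen, and not each is marked so in its place. The cells, the gene lists and this rule were chosen with earlier results of these data known. Promoters are the first RefSeq start listed for a gene. Alternatives were other cell and gene filters, thinning, doublet removal, other scores, set sizes and tag rules, and, added after seeing the data, ratios within hashtags, motif shares without the rule genes and lists in tagged cells only.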

Additional observations from a re-analysis of the deposited data

Results flagged for a closer look

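Genes of the lists, or of the 15 highest and 15 lowest ratios, stood out where G1/S cells were at least 1.5-fold above the other cells in one hashtag and at least 1.5-fold below them in another, with intervals on either side of 1. The difference between hashtags was not tested, since each is 1 culture. Acta2 had a ratio of 0.58 in hashtag 1 and 1.54 in hashtag 4, and Myl9 0.53 and 1.54. Where the top tag had to be at least 3 times the second, Acta2 in hashtag 1 was at 0.91 (0.80 to 1.03) and Myl9 in hashtag 4 at 0.97 (0.57 to 1.56), so an interval reached 1 for each gene there, while Acta2 in hashtag 4 was at 1.42 (1.19 to 1.68) and Myl9 in hashtag 1 at 0.47 (0.30 to 0.71). Samhd1 was at 0.65 in hashtag 1 and 2.10 in hashtag 2, and Ccl5 at 0.51 and 1.75. Ccl5 in hashtag 2 rested on 27 UMIs in G1/S cells, and on 0 UMIs without doublets, while hashtag 4 was at 3.57 with all cells and 13.6 without doublets. Csf3 was at 1.81 in hashtag 1 and 0.17 in hashtag 2, and Actg2 (enteric gamma-actin) at 0.13 in hashtag 2 and 2.41 in hashtag 3. Their levels in the G1/S cells of those hashtags were 1.75 to 21.6 CPM, and 1.75 CPM in hashtag 2 is 1 UMI. What doublets, wrong tags and depth contribute to these differences was not tested.

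Cells without a hashtag enter no comparison between hashtags, yet 478 of 5307 (9.01%, 8.25 to 9.81) were G1/S cells, 45.8% of the set. Cells with more than 1 hashtag, of which Scrublet called 59.7% doublets, had a share of 7.87%.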

How the results depend on the processing

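Of 74 values recomputed under alternatives, 59 stayed within the stated bounds (1.5 times a count, 1 SD over hashtags or over the 6 held-out genes, or the interval of a share), 15 moved and 0 reversed. With a minimum of 100 UMIs per gene, 1133 genes were lower, and with 2000 UMIs 395 were higher and 214 lower; the filter sets how many genes are compared. The median log2 ratio of the replication genes was 1.504 without doublets, 1.28 in thinned cells, 1.28 by the number of rule genes detected and 1.43 pooled within hashtags. The share of hashtag 1 was 1.58% and of hashtag 3 17.1% without doublets, and of hashtag 3 12.8% in thinned cells. The median held-out ratio was 5.76, with single genes at 4.70 (Ccne1), 6.95 (Cdc6) and 7.39 (Ccne2), and it was 4.68 in thinned cells and 7.55 without doublets. The cause of these shifts was not tested. Hashtag 1 had the lowest and hashtag 3 the highest share under the 7 alternatives run for the shares, which did not include other set sizes. No paired analysis was possible because there is 1 library and no replicate. The levels of hashtag 2 rest on 46 G1/S cells, and depth limits the 6 rule genes, whose score in a shallow cell can turn on a few UMIs.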
